A study of Homo sapiens with 12 samples.

Results

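Ion channel genes for potassium, sodium, calcium and acid-gated currents were followed through 4 ChIP-seq libraries of the histone mark H3K27me3. A gene was a member when its deposited symbol began with KCN, a letter and a digit, with SCN and a digit, with CACNA, CACNB or CACNG, or with ASIC and a digit. It also had to lie on an autosome and to have, in at least 1 library, a deposited peak whose centre was within 10 kb of its transcription start. Names of antisense and overlapping transcripts were left out. The rule gave 115 genes of the 18981 that had a peak within that distance: 75 potassium, 14 sodium, 22 calcium and 4 acid-sensing channel names, of which 5 are names of non-coding transcripts. The 5 non-coding names, CACNA1C-IT3, KCND3-IT1, KCNH1-IT1, KCNQ1DN and KCNQ5-IT1, are counted below in the subfamilies of their symbols. The rule used no measured change, but it did require a called peak. Another 7 names had peaks only farther out.

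All libraries came from T24, an established human bladder cancer cell line, and each condition had 1 library. Vehicle cells received DMSO, with no time given in the labels. The other cells were treated for 72 h with 5 µM GSK-126, an inhibitor of the H3K27 methyltransferase EZH2, with 5 µM fenretinide, a synthetic retinoid, or with both at 5 µM each, here called the combination. The labels name no genetic change in these cells. A histone mark does not show cell type markers, so the labelled cell type was not checked. The 4 input and 4 RNA-seq libraries of the series were not analysed here, so nothing below is a measurement of channel expression.

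H3K27me3 is written by Polycomb repressive complex 2, whose catalytic subunit is EZH2, and marks silent genes, often as broad domains around CpG-rich promoters of genes that other cell types use. Most voltage-gated channels belong to nerve, heart and muscle: sodium and calcium channel alpha subunits carry the inward currents of the action potential, potassium channels end it or hold the resting potential, and small auxiliary subunits set their gating and transport to the membrane. Acid-sensing channels pass sodium ions when the outside of the cell turns acidic.

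The libraries held 15812933 to 18928836 fragments in the 273664 deposited intervals. A member's value was the number of fragments in the intervals that overlap its peaks. Ratios compare the shares that a gene took of 2 libraries, and brackets give the exact Clopper-Pearson 95% interval, which covers counting error only. With 1 library a condition no p-value was computed, and each ratio compares those libraries, not the treatments. The labels name no spike-in, so rises and falls are of library share. A gene rose where its ratio was 2 or more and fell where it was 0.5 or less, provided that the interval excluded 1 and the pair of libraries held at least 50 fragments for it. The comparisons of GSK-126, fenretinide and the combination with vehicle share the vehicle library, and the comparisons of the combination with each compound share the combination library.

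The starts of 4 members are shown as sequence, which holds no measurement of the mark. KCNN1, a small-conductance calcium-activated potassium channel, KCNG4, a silent modifier of Kv2 channels, and KCNK4, a mechanosensitive background channel, had the largest falls with GSK-126, ranked by the counting bound nearest to 1, among members whose RefSeq start lay inside one of their intervals. KCNJ3, a subunit of the G protein-gated inward rectifier, was the 1 member that rose. The 250 bases before each start are printed 5′ to 3′ on the gene's strand, from RefSeq promoters of GRCh38.p14, with every CG pair in capitals because Polycomb domains often form over such DNA. They lie at chr19:17966857-17967106 on the plus strand, chr16:84240013-84240262 on the minus strand, chr11:64291052-64291301 on the plus strand and chr2:154698445-154698694 on the plus strand.
KCNN1: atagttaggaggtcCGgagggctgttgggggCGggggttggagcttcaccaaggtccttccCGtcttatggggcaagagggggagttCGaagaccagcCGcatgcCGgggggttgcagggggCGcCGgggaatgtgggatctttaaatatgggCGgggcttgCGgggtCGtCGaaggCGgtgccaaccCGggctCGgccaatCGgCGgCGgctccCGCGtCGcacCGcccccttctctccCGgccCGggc
KCNG4: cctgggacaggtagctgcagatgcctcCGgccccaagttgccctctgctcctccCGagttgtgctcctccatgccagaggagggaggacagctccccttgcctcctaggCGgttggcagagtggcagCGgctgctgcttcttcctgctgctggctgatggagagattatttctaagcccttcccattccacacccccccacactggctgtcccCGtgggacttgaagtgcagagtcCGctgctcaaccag
KCNK4: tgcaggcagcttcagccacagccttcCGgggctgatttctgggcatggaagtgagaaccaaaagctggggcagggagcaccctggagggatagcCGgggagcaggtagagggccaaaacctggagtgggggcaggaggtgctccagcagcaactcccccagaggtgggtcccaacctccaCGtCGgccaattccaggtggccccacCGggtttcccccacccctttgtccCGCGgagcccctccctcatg
KCNJ3: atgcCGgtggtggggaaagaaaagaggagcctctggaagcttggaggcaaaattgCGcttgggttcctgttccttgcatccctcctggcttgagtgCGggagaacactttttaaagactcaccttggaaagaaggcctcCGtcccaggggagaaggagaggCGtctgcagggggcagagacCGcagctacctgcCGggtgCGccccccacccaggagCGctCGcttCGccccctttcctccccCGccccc

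These stretches held 24 CG pairs in KCNN1, 6 in KCNG4, 7 in KCNK4 and 12 in KCNJ3. Over 27305 RefSeq promoters of that length the median was 11 CG pairs, with quartiles of 3 and 23. KCNN1 therefore lay above the upper quartile and the other 3 within the quartiles. In the window of 250 bases before to 50 after the start, GGGCGG on either strand had 3 matches in KCNN1, 1 in KCNJ3 and 0 in KCNG4 and KCNK4, and occurred in 42.3% of all promoters. AGGTCA, found in 12.1% of promoters on either strand, CAGCACC, found in 6.07%, and TATAAA, found in 11.1%, had 0 matches in all 4 genes. A match or its absence describes these letters in this window only. RefSeq promoters were matched for 78 of the 115 members, which is too few for a comparison of base composition over the members.

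Intervals of channel genes, drawn over all 4 libraries, were wider than those of all genes at the median and held more vehicle fragments per kb. Their intervals together spanned 0.564 to 488.3 kb for a gene, with a median of 27.2 kb, against a median of 10.9 kb over all genes. Vehicle held between 1.09 and 54.0 fragments per kb of a member's intervals, with a median of 17.1, against 13.3 over all genes. Among the densest members were KCNQ1, the cardiac slow delayed rectifier, at 44.4 fragments per kb, KCNK15, a background channel of the TASK group, at 36.9, and KCNG1, a Kv2 modifier, at 36.5. The widest were KCNK9, another TASK channel, with 1 interval of 488.3 kb on chromosome 8, and KCNA5, the atrial Kv1.5 channel, with 1 interval of 329.5 kb on chromosome 12. At the other end stood ASIC5 with 1.09 fragments per kb, KCNJ3 with 4.93 and KCNH7, an ERG-type channel, with 5.82.

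Peaks covered the starts of channel genes more often than those of all genes with a start. The gene start was read back from the deposited peak distances for all 115 members, and the 300 bases around it were under a vehicle peak in 86 members (74.8%) against 34.4% of 14508 genes. The rule itself asks for a peak near the start, as it does of every gene in that background. With GSK-126 the number was 60 (52.2%, against 24.4% of all genes), with fenretinide 80 (69.6%, against 30.4%) and with the combination 64 (55.7%, against 27.9%). Within 10 kb on either side of the start, a median of 13.4 kb of 20 kb was under peaks in vehicle, 5.07 kb with GSK-126, 11.5 kb with fenretinide and 6.70 kb with the combination. The same medians over all genes were 5.26, 2.18, 4.66 and 3.54 kb. Members stood above all genes in each library, and both sets had less of the start region under peaks in the 2 libraries with GSK-126. No interval for these shares is given, since genes are not replicates.

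**Figure D1:**
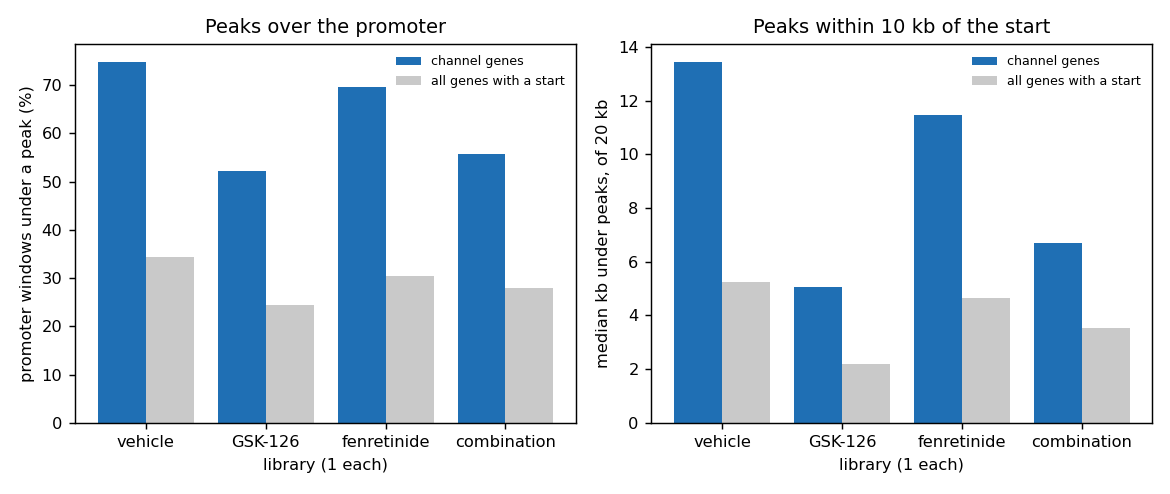
Left: percent of genes whose 300-base promoter window was under a deposited peak, in each of 4 libraries, for the 115 channel genes (blue) and 14508 genes with a start (grey). Right: median kb under peaks of the 20 kb centred on the start. Channel genes stand above all genes in every library, and the bars with GSK-126 (52.2%) and the combination (55.7%) are below vehicle (74.8%).

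Of the 86 members whose promoter window was under a vehicle peak, 31 had no GSK-126 peak there. Over all genes this held for 2418 of 4995, a larger share. The reverse was seen in 5 of the 60 members with a GSK-126 peak over the window, and in 969 of 3546 genes. A peak was present over the window in all 4 libraries in 46 members, among them ASIC4 and KCNN1, and in none of them in 20, among them ASIC1 and SCN4B. In 16 members, KCNG4, KCNK4 and CACNA1H among them, the peak was listed in vehicle and fenretinide only. Such patterns over the libraries were counted for members only, so no share of all genes stands beside them. KCNJ3 was the 1 member with a promoter peak in GSK-126 and the combination only, where 1.02 kb of 20 kb was under peaks in vehicle, 13.1 kb with GSK-126, 0.429 kb with fenretinide and 11.3 kb with the combination. For KCNN1 the same measure was 18.8, 4.64, 17.3 and 7.79 kb, so a peak remained over the start while the covered length shrank. Each peak list depends on its calling threshold, and the deposited lists differ in length from 212277 peaks in vehicle to 274393 in the combination.

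With GSK-126, 52 of the 109 members that reached the fragment minimum fell, 1 rose and 56 did neither. Over all genes 41.4% fell and 11.5% rose by the same rule. The 47.7% of members that fell lies near the background share, while the 0.917% that rose lies below that of all genes. The median log2 ratio was -0.93 for members and -0.79 for all genes. Members' ratios ran from -2.64 to 1.70 on the log2 scale. The counting interval lay wholly below 1 in 94 members (86.2%, against 66.6% of all genes). It lay wholly above 1 in 6 members (5.5%, against 19.2% of all genes). ASIC5, CACNA1S, CACNA2D1, KCNJ11 and KCNN4 were among the 6 members under the minimum. Median density over the members was 17.1 fragments per kb in vehicle, 8.45 with GSK-126, 15.1 with fenretinide and 9.05 in the combination. When libraries were instead scaled to their sparsest intervals, 93 members fell and 0 rose, against 68.7% of all genes that fell and 7.23% that rose.

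**Figure D2:**
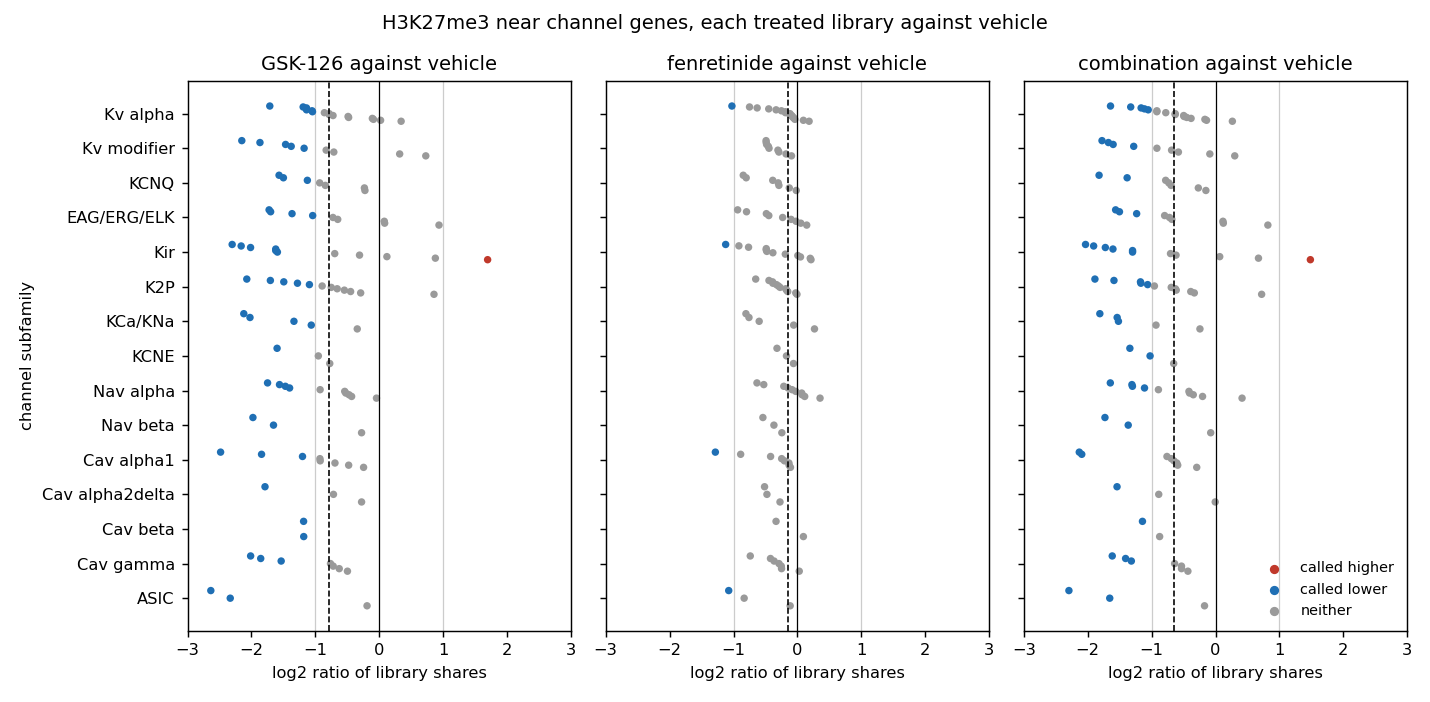
Log2 ratio of library shares of each measured channel gene, by subfamily, in 3 comparisons with vehicle; 1 point is 1 gene, red rose, blue fell and grey did neither, and the dashed line is the median over all genes. In GSK-126 and the combination the points reach from below -2 to KCNJ3 at 1.70 and 1.48, while with fenretinide they gather around the dashed line.

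The acid-sensing channels included the largest fall. ASIC4, a modulatory member that forms no acid-gated current by itself, held 853 fragments in vehicle, 129 with GSK-126, 447 with fenretinide and 160 in the combination, in 1 interval of 27.3 kb on chromosome 2 (219509541 to 219536851, GRCh38). Vehicle was highest and the 2 libraries with GSK-126 were lowest. Its ratio with GSK-126 was 0.160 (0.132 to 0.193). ASIC1, the main acid sensor of brain neurons, had 189, 35, 117 and 55 fragments in the same order of libraries, all from 1 interval of 7.82 kb that does not reach its start, and a ratio of 0.196 (0.133 to 0.283). ASIC2, a subunit that combines with ASIC1, did not reach the rule: it had 1396, 1153, 1426 and 1143 fragments and a ratio of 0.876 (0.809 to 0.948). ASIC5 had 4, 28, 7 and 28 fragments, below the minimum with GSK-126.

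Voltage-gated calcium channels fell in 9 of 20 measured members, and 0 rose, against 41.4% and 11.5% of all genes. Among the 8 measured alpha1 names, which include the non-coding transcript CACNA1C-IT3 beside the pore-forming subunits, 3 fell. These were CACNA1G and CACNA1H, which carry low-voltage T-type current, and CACNA1A, the P/Q-type channel of nerve terminals. CACNA1G held 210 fragments in vehicle, 35 with GSK-126, 95 with fenretinide and 45 in the combination, a ratio of 0.177 (0.120 to 0.254) with GSK-126. Its 9.19 kb interval on chromosome 17 (50559918 to 50569108) is shared with the antisense transcript CACNA1G-AS1, and the deposited counts do not use strand. CACNA1H held 1575, 414, 940 and 331 fragments and had a ratio of 0.279 (0.249 to 0.311). CACNA1A went from 4929 fragments to 2022 (0.435, 0.413 to 0.458). CACNA1B, the N-type channel, stayed at a ratio of 0.844 (0.805 to 0.884), the highest of the alpha1 subunits. CACNA1C, the cardiac L-type channel, was no member, since the nearest peak assigned to it lay 11834 bp from the start. The non-coding transcript CACNA1C-IT3, named after that gene, was a member, with 1 interval of 320.1 kb on chromosome 12. It held 8392, 4894, 8455 and 5138 fragments in the same order of libraries.

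Auxiliary calcium channel subunits included members that fell and members near 1, where 41.4% of all genes fell. CACNA2D2, which helps carry alpha1 subunits to the membrane, fell from 525 fragments to 143 (0.289, 0.238 to 0.348), while CACNA2D4, known from the retina, had 609 and 474 (0.825, 0.731 to 0.932). Both measured beta subunits fell, CACNB4 from 355 to 147 (0.439, 0.360 to 0.534) and CACNB2 from 547 to 227 (0.440, 0.375 to 0.515). Neither call held everywhere: CACNB4 had a ratio of 0.620 when peaks were limited to 2 kb from the start, and CACNB2 0.506 over its whole gene span. Of the gamma subunits, most of which escort AMPA receptors rather than calcium channels, 3 of 7 fell. CACNG2, or stargazin, held 2475 fragments in vehicle, 645 with GSK-126, 2042 with fenretinide and 916 in the combination, over 1 interval of 86.0 kb on chromosome 22. Its ratio with GSK-126 was 0.276 (0.253 to 0.301). CACNG8 fell to 0.246 (0.184 to 0.326), or to 0.548 with no limit on peak distance, which ends the call.

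Among sodium channels 6 of 13 measured members fell with GSK-126 and 0 rose, against 41.4% and 11.5% of all genes. Of the alpha subunits 4 of 10 fell, among them SCN4A of skeletal muscle, SCN9A of pain-sensing neurons and SCN3A of the developing brain. SCN9A held 170, 54, 162 and 63 fragments in vehicle, GSK-126, fenretinide and the combination, a ratio of 0.337 (0.243 to 0.460) with GSK-126. Both libraries with GSK-126 were below the other two. Over its whole gene span the ratio was 0.893, so the call did not hold there. SCN4A held 556, 198, 396 and 208 fragments in the same order (0.378, 0.320 to 0.445). SCN2A, a brain alpha subunit, had 82, 75, 89 and 101 fragments and a ratio of 0.970 (0.70 to 1.34), the highest of its group. SCN2B and SCN4B, beta subunits that lie side by side on chromosome 11 and share an interval, fell to 0.317 (0.275 to 0.365) and 0.254 (0.215 to 0.298). SCN4B held 778 fragments in vehicle, 186 with GSK-126, 591 with fenretinide and 216 in the combination. The beta subunit SCN3B, at 0.825 (0.698 to 0.975), did not reach the rule.

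Voltage-gated potassium channel alpha subunits of the Kv1 to Kv4 groups fell in 7 of 17 measured names, and 0 rose. The shares of all genes were 41.4% and 11.5%. The highest ratio was that of KCNC2, a channel of fast-firing neurons, with 204, 244, 256 and 226 fragments (1.27, 1.05 to 1.53). KCNA2 and KCNA10 have the same intervals and therefore 1 value, 0.454 (0.427 to 0.483). The modifier subunits, which form channels only with Kv2 partners, fell in 5 of 9. KCNG4 held 275 fragments in vehicle, 58 with GSK-126, 285 with fenretinide and 79 in the combination (0.224, 0.166 to 0.298), and KCNG1 held 1290, 333, 1016 and 347 (0.274, 0.242 to 0.309). Vehicle and fenretinide were close in KCNG4, and the 2 libraries with GSK-126 were far below them. KCNV1 stood apart among the modifiers, with 124, 194, 112 and 141 fragments and a ratio of 1.66 (1.32 to 2.1).

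In the KCNQ group, whose channels carry the M current and the slow cardiac current, 3 of 7 names fell, against 41.4% of all genes. The 7 include the non-coding KCNQ1DN and KCNQ5-IT1. KCNQ5-IT1, with 85 fragments in vehicle and 28 with GSK-126, is among the 3 that fell. KCNQ5, an M-channel subunit, held 114 fragments in vehicle, 49 with GSK-126, 103 with fenretinide and 61 in the combination (0.456, 0.319 to 0.642). KCNQ3, another M-channel subunit, had a ratio of 0.856 (0.80 to 0.916), and KCNQ1 one of 0.557 (0.528 to 0.588), in intervals shared with TRPM5. Of the EAG, ERG and ELK names, which include the non-coding KCNH1-IT1, 4 of 9 fell. KCNH6 fell to 0.302 (0.241 to 0.375), and KCNH2, the hERG channel of cardiac repolarisation, held 3050, 1116, 2471 and 1196 fragments (0.388, 0.362 to 0.416), in intervals shared with NOS3. KCNH7, of the same ERG group as both, held 68, 123, 78 and 111 (1.92, 1.42 to 2.62), just inside the limit of 2.

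Inward rectifiers held both directions, with 6 of 11 measured members that fell and 1 that rose, against 41.4% and 11.5% of all genes. KCNJ12, a strong rectifier of heart and muscle, held 277 fragments in vehicle, 58 with GSK-126, 162 with fenretinide and 62 in the combination (0.222, 0.164 to 0.296). It has a near-identical copy, KCNJ18, at 0.807 (0.719 to 0.905), and how reads were split between them is not given in the sources used here, so both values are uncertain. Over the whole gene span KCNJ12 had a ratio of 0.521, which ends the call. KCNJ5, which pairs with KCNJ3 in the atrial acetylcholine-gated channel, had 91, 17, 59 and 22 fragments (0.198, 0.111 to 0.335).

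KCNJ3 held 107 fragments in vehicle, 328 with GSK-126, 136 with fenretinide and 277 in the combination, in 4 intervals of 21.7 kb on chromosome 2. The 2 libraries with GSK-126 were above the 2 without it. The ratio with GSK-126 was 3.25 (2.61 to 4.08). Its density was 4.93 fragments per kb in vehicle, where 113 members were denser, and 15.1 with GSK-126, where 14 were. Scaled to the sparsest intervals, the ratio was 1.91, under the limit. KCNJ6, another subunit of the G protein-gated channel, had 1080, 1872, 1383 and 1588 fragments (1.84, 1.71 to 1.98). With only peaks within 2 kb of the start, KCNJ6 had a ratio of 2.60, KCNH7 one of 2.35 and KCNV1 one of 2.35, and all 3 were then called. So 2 subunits of the G protein-gated channel lay above 1 and KCNJ5 and KCNJ9, the latter at 0.325 (0.281 to 0.375), lay below 0.5. KCNJ9 shares all its intervals with KCNJ10, a glial rectifier.

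**Figure D3:**
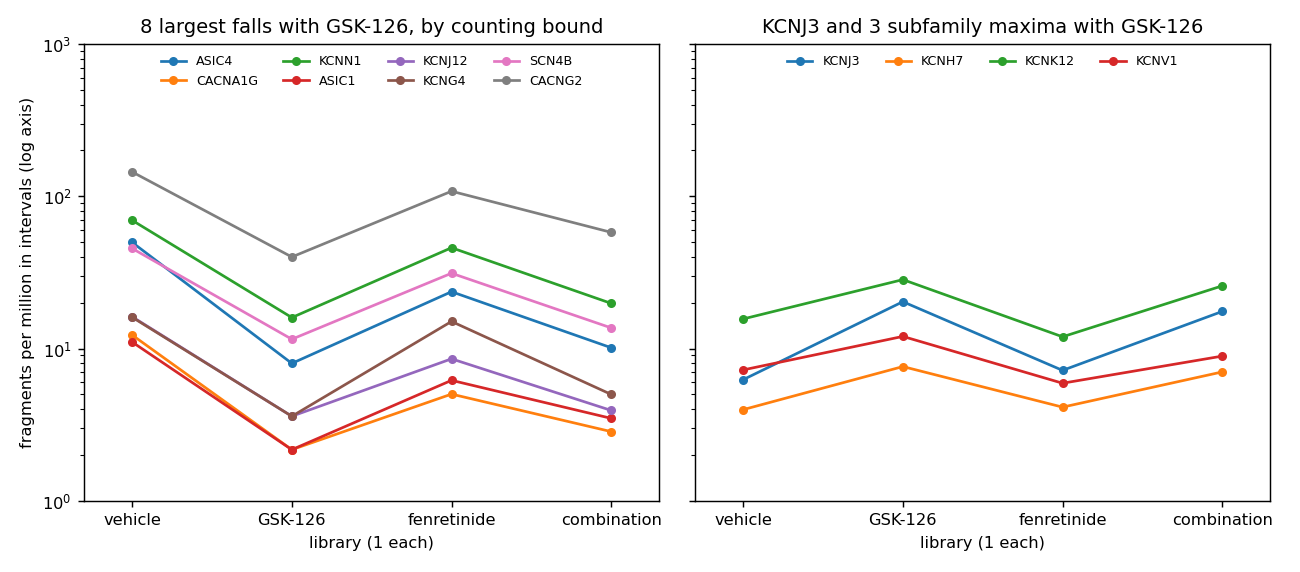
Fragments relative to the library's interval total (log axis, units as labelled) in each of 4 libraries, for the 8 largest falls with GSK-126, ranked by the counting bound nearest to 1 (left) and for KCNJ3 with the 3 highest members of other potassium subfamilies (right); lines only join the points of 1 gene. Every gene on the left is lower in GSK-126 and the combination than in vehicle, and KCNJ3 on the right is higher in both.

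In the remaining potassium subfamilies 0 members rose, where 11.5% of all genes rose and 41.4% fell. Of the 2-pore background channels, which set the resting potential, 5 of 12 fell. KCNK4 held 198 fragments in vehicle, 44 with GSK-126, 139 with fenretinide and 49 in the combination (0.236, 0.166 to 0.328), in an interval of 9.62 kb shared with TEX40. KCNK12, which gives no current of its own in most assays, held 268, 458, 226 and 408 (1.81, 1.55 to 2.12). Calcium- and sodium-activated channels fell in 4 of 5. KCNN1 held 1191 fragments in vehicle, 258 with GSK-126, 869 with fenretinide and 313 in the combination (0.230, 0.20 to 0.263), and KCNN2, a close relative, had 330, 245, 439 and 257 (0.787, 0.665 to 0.932). Among the KCNE beta subunits 1 of 3 fell, KCNE2 at 0.329 (0.247 to 0.431), which was 0.638 with no limit on peak distance and then not called. KCNE4 had a ratio of 0.582 (0.412 to 0.814).

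Length of the marked region varied along with these values. Of members with under 10 kb of intervals 10 of 19 fell, of those with 10 to 50 kb 32 of 60, and of those with 50 kb or more 10 of 30. Over all genes the shares that fell were 48.9%, 40.8% and 28.7% in the same classes. Its part in the results was not tested.

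Channel genes that lie next to each other did not always have like ratios. On chromosome 2 the sodium channel genes SCN3A, SCN2A, SCN1A, SCN9A and SCN7A had vehicle densities of 9.28, 9.42, 9.79, 11.5 and 9.62 fragments per kb. With GSK-126 the densities were 3.13, 8.62, 4.83, 3.66 and 6.51. The ratio of SCN2A (0.970, 0.70 to 1.34) had an interval that lay above those of SCN3A (0.357, 0.230 to 0.542) and SCN9A (0.337, 0.243 to 0.460). It overlapped those of SCN1A (0.523, 0.338 to 0.794) and SCN7A (0.718, 0.478 to 1.07). These values rest on 31 to 170 fragments a library.

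On chromosome 3 the neighbours SCN10A and SCN11A, both of pain-sensing neurons, stood at 0.695 (0.598 to 0.807) and 0.687 (0.637 to 0.741). Vehicle density was 21.5 and 21.9 fragments per kb in these genes. Among the gamma subunits on chromosome 17, CACNG4 fell to 0.345 (0.296 to 0.40), between CACNG5 at 0.708 (0.661 to 0.759) and CACNG1 at 0.648 (0.60 to 0.70). The Kv1 genes KCNA6, KCNA1 and KCNA5 on chromosome 12 lay in intervals of 158.2, 101.9 and 329.5 kb and had ratios of 0.713, 0.717 and 0.928. KCNJ1, the renal potassium secretion channel, and KCNJ5 on chromosome 11 both fell, to 0.245 (0.162 to 0.359) and 0.198 (0.111 to 0.335).

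**Figure D4:**
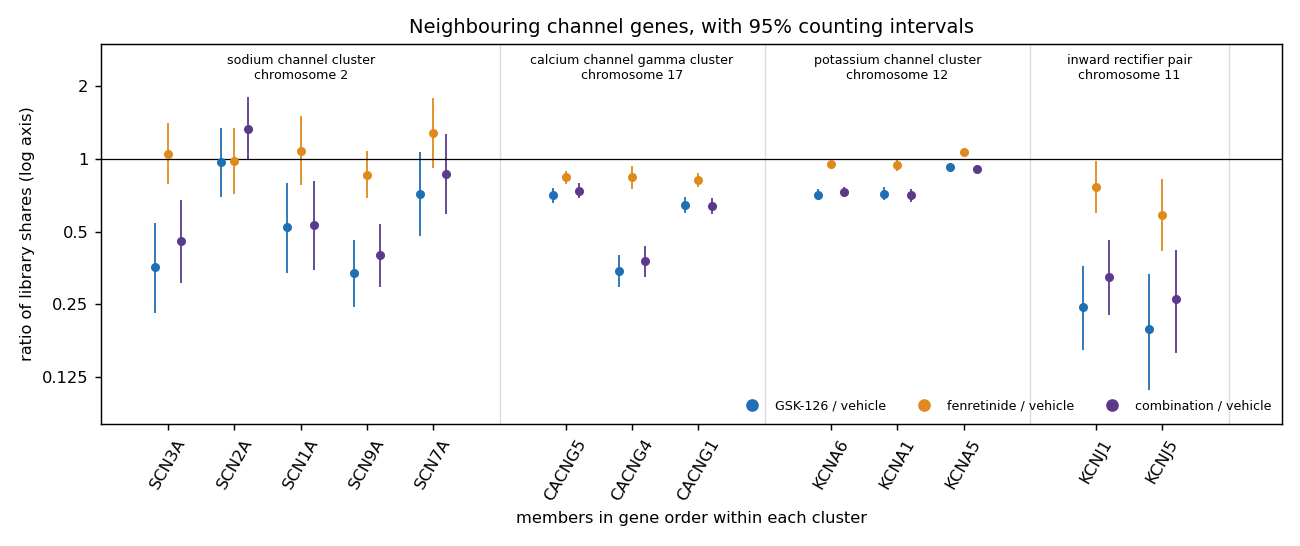
Ratio of library shares against vehicle (log axis) with 95% counting intervals for members in 4 groups of neighbouring genes, in gene order; blue is GSK-126, orange fenretinide and purple the combination. SCN2A at 0.970 and CACNG4 at 0.345 with GSK-126 stand apart from at least 1 neighbour beyond counting error.

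With fenretinide alone few members passed the 2-fold rule: 4 of 110 fell and 0 rose. Over all genes 1.5% fell and 0.337% rose. The median log2 ratio was -0.27, against -0.15 for all genes. The counting interval lay wholly below 1 in 67 members (60.9%, against 35.05% of all genes). It lay wholly above 1 in 3 members (2.7%, against 8.6% of all genes). The 4 that fell were CACNA1G at 0.409 (0.318 to 0.524), ASIC4 at 0.474 (0.422 to 0.532), KCNC4, a fast-inactivating Kv3 channel, at 0.487 (0.296 to 0.786) and KCNJ11, the pore of the pancreatic KATP channel, at 0.453 (0.237 to 0.833). KCNC4 rested on 52 and 28 fragments and KCNJ11 on 34 and 17. The KCNJ11 fragments lay in 1 interval of 2.02 kb, with a peak centre 7169 bp from the start. The KCNJ11 gene span with 5 kb on either side held 0 fragments, so nothing could be called there. CACNA1G, KCNC4 and KCNJ11 each had under 10 kb of intervals, a class in which 3.71% of all genes fell. The calcium-activated KCNN2 had the highest ratio among potassium channel members, with 330 and 439 fragments (1.20, 1.04 to 1.39), which is no rise by the rule.

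With the combination, 45 of 109 members fell and 1 rose, against 32.9% and 9.86% of all genes. The median log2 ratio was -0.78, against -0.64. ASIC4 had the lowest ratio, 0.203 (0.171 to 0.241), followed by CACNA1H at 0.228 (0.202 to 0.257) and CACNA1G at 0.232 (0.164 to 0.322). Others among the largest falls by counting bound were KCNJ12 at 0.242 (0.181 to 0.320), KCNN1 at 0.285 (0.251 to 0.323), KCNG1 at 0.291 (0.258 to 0.328) and SCN4B at 0.301 (0.258 to 0.350). KCNJ3 rose to 2.80 (2.24 to 3.54), or to 1.60 when scaled to the sparsest intervals, which ends the call. By class, 30 of 73 potassium, 6 of 13 sodium, 7 of 20 calcium and 2 of 3 acid-sensing members fell.

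**Figure D5:**
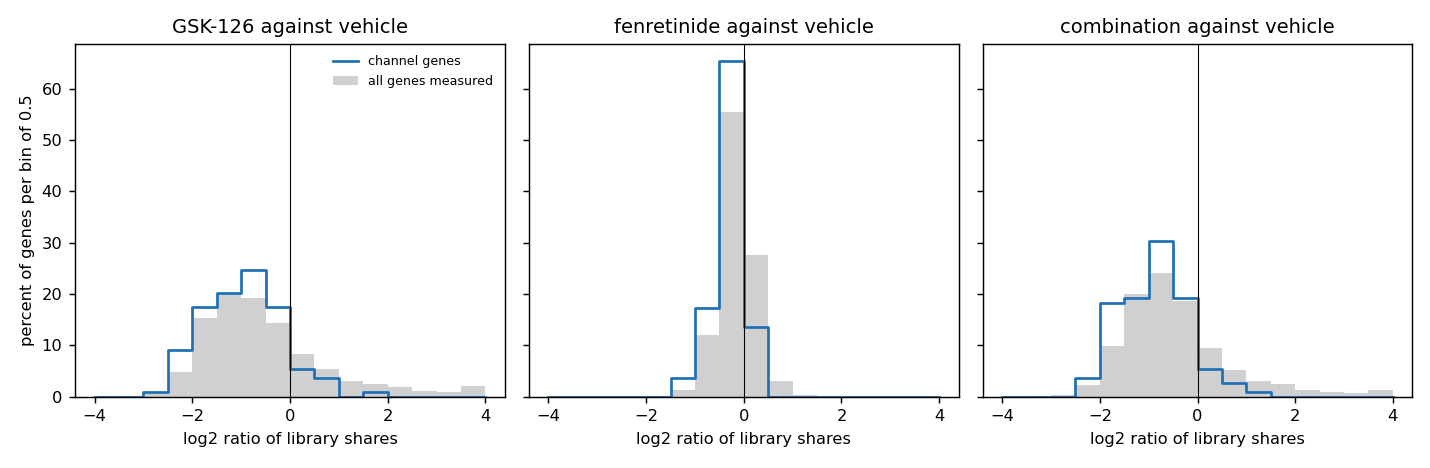
Percent of genes in bins of 0.5 of the log2 ratio of library shares, for measured channel genes (blue line) and all measured genes (grey), in 3 comparisons with vehicle; values beyond the axis are placed in the outermost bin. With GSK-126 and the combination both sets lie mostly below 0, with medians of -0.93 and -0.78 for channel genes.

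Set directly against GSK-126 alone, the combination called 0 of 108 members in either direction, against 0.443% of all genes higher and 0.501% lower. The median log2 ratio was 0.11, and 0.08 over all genes. The counting interval lay above 1 in 27 members (25%, against 20.6% of all genes) and below 1 in 8 (7.41%, against 10.9%). With TMM scaling the median of the members was -0.0026, so its sign depends on the scaling. CACNG2 was among the former, with 645 fragments with GSK-126 and 916 with the combination (1.45, 1.31 to 1.61), and so was CACNA1A, with 2022 and 2685 (1.36, 1.28 to 1.44). CACNA1H, with 414 and 331 (0.817, 0.705 to 0.946), and KCNT1, a sodium-activated potassium channel, with 1049 and 748 (0.729, 0.662 to 0.801), were among the latter. CACNG2, CACNA1A and KCNT1 were chosen after their values were seen. None of these differences has a replicate check.

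Against fenretinide alone, 23 of 108 members fell and 2 rose with the combination, while 18.7% of all genes fell and 9.43% rose. The median log2 ratio was -0.56, against -0.49. KCNG4 had the lowest ratio, from 285 to 79 fragments (0.332, 0.255 to 0.427), and KCNG1 went from 1016 to 347 (0.409, 0.361 to 0.462). CACNA1H went from 940 to 331 (0.421, 0.371 to 0.478). Without a limit on peak distance KCNG1 and KCNG4 stood at 0.520 and 0.509, just outside the call. KCNJ3 rose from 136 to 277 (2.44, 1.98 to 3.02), and KCNK12 rose from 226 to 408 (2.16, 1.83 to 2.55). Scaled to the sparsest intervals, those 2 ratios were 1.52 and 1.35, so neither rise was called.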

How the data were processed

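The deposited table holds raw fragment counts in 273664 consensus intervals, made by the authors with featureCounts 2.0.1, per the file headers: read pairs, no strand, a minimum overlap fraction of 0.2, and overlapping intervals each counting the fragment. A broad peak list per library was deposited too, with a score of no stated scale and other annotation columns from HOMER, per the file headers. Peaks were called with MACS2 2.1.0 on GRCh38 (hg38), per the submitters' processing notes. The aligner and the control for calling were not given in the sources used here.

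Fragments were summed over the intervals that overlap peaks assigned to a gene within 10 kb. Log2 ratios used a pseudocount of 0.5. Of the members, 46 had 1 interval and 69 several, 277 in all. An interval was shared with another gene in 28 members, and 5 pairs of members shared one, which leaves 110 separate groups. Starts were computed from the deposited distances, with RefSeq gene ends used to choose among them and to settle strand where the peaks did not. Strand equalled RefSeq in 78 of 78 members compared, partly by construction. A start read back on the RefSeq strand lay within 1 kb of the RefSeq start in 56 of these 78, and within 5 bp in 11. Settings tried were edgeR 4.0.16 TMM factors, used only for scaling, scaling to the 25% of intervals with the fewest fragments per kb, no fragment minimum, peaks within 2 kb or at any distance, a peak score of at least 20, shared members as 1 group, and RefSeq gene spans with 5 kb on either side. The calling was run on simulated Poisson counts with set ratios. These hold no spread between libraries, so the run checks the counting rule only. Software was R 4.3.3, matplotlib 3.10.9, scipy 1.17.1, pandas 2.3.3, numpy 2.4.6 and Python 3.11.15.

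The members, lists and settings were chosen with earlier results of these data known. Named genes were, for each treated library against vehicle, up to 8 rises and 8 falls with at least 100 fragments, ranked by the counting bound nearest to 1, and up to 3 each way for the combination against each compound. To these were added the 5 densest members in vehicle, the highest and lowest of each subfamily with GSK-126, and ASIC1, ASIC2, ASIC4, KCNH2, KCNQ1, SCN9A, CACNA1C, CACNA1G and CACNA1H whatever their values. Some members that the rule names are not reported here. Neighbouring genes and other examples were chosen after their values were seen.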

Additional observations from a re-analysis of the deposited data

How the results depend on the processing

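Scaling to the sparsest intervals moved every log2 ratio by -0.77 with GSK-126, -0.13 with fenretinide, -0.81 with the combination and -0.68 for the combination against fenretinide, for members and all genes alike. With GSK-126 it gave 0 members higher and 93 lower with a median log2 ratio of -1.70, against vehicle the combination had 0 and 92 with -1.60 (68.7% and 69.2% of all genes were lower), and against fenretinide it had 0 and 81 with -1.24 (59.6%). In the same comparisons 7.23%, 5.12% and 4.71% of all genes were higher. With fenretinide 7 members were lower and the median was -0.41 (2.64% of all genes). TMM factors gave 7 lower and -0.39 with fenretinide (all genes 2.47%). For the combination against GSK-126 they gave a median of -0.0026, the opposite sign to 0.11, where scaling to the sparsest intervals gave 0.060. With no fragment minimum 2 of 115 members were higher with GSK-126 and 2 of 115 with the combination (all genes 12.9% and 11.9%). With peaks within 2 kb, 4 of 85 measured members were higher with GSK-126 (KCNH7, KCNJ3, KCNJ6 and KCNV1, all genes 9.55%). For the combination against fenretinide 4 of 83 were higher (all genes 7.26%). With no limit on distance, 8 of 117 were higher with GSK-126 and 8 of 117 with the combination (all genes 16.3% and 14.7%). The combination then had a median of -0.63 against vehicle. Against fenretinide 4 of 117 were higher and 13 lower, with a median of -0.47 (all genes 13.4% and 11%). Fenretinide had 2 of 116 lower with -0.18 (all genes 0.79%). That setting also put KCNE4 at 1.09 (combination against vehicle) and KCNE2 at 1.03 (combination against fenretinide), on the other side of 1. A score of at least 20 gave 2 of 99 higher with GSK-126 and 2 of 99 lower with fenretinide (all genes 11.3% and 1.2%). Gene spans gave 1 of 110 higher for the combination against fenretinide, where all genes, counted by the main rule, gave 9.43%. The cause was not tested. No paired analysis was possible because each condition had 1 library and the labels give no replicate numbers. For the same reason no replicate could be left out. Genes with few fragments, such as KCNC4, KCNJ11 and SCN3A, have wide counting intervals, and depth limits what can be said of them.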

Other observations

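Auxiliary and neighbouring channel genes outside the naming rule were counted in the same way from a fixed list of 52 symbols, of which 38 had an interval within 10 kb. With GSK-126, 13 of 33 measured genes fell, 1 rose and 19 did neither, with a median log2 ratio of -0.78. Over all genes 41.4% fell and 11.5% rose, with a median of -0.79. Of the epithelial sodium channel subunits, SCNN1B and SCNN1G fell and SCNN1D did not: SCNN1B held 541 fragments in vehicle and 155 with GSK-126 (0.304, 0.253 to 0.364), SCNN1G held 3207 and 1156 (0.382, 0.357 to 0.409), and SCNN1D held 24 and 43 (1.90, 1.13 to 3.27), which is no rise by the rule. KCNMB1, the smooth-muscle beta subunit of the large-conductance calcium-activated potassium channel, fell from 762 to 275 (0.383, 0.332 to 0.440), and KCNIP1, a calcium-binding partner of Kv4 channels, from 903 to 349 (0.410, 0.361 to 0.464). CATSPER2, of the sperm calcium channel, was the 1 that rose, from 18 to 92 fragments (5.42, 3.25 to 9.55), and it held 32 with fenretinide and 88 in the combination. With fenretinide 0 of 32 changed by the rule, where 1.5% of all genes fell and 0.337% rose. In the combination 8 of 33 fell and 1 rose against vehicle (all genes 32.9% and 9.86%). Against GSK-126 0 of 33 changed (all genes 0.501% lower and 0.443% higher), and against fenretinide 2 of 33 fell and 2 rose (all genes 18.7% and 9.43%). These genes were named after their values were seen.

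The names left out by the limit on distance included genes with a larger share in the libraries with GSK-126. KCNT2, a sodium-activated potassium channel whose nearest peak centre lay 14857 bp from its start, held 676 fragments in vehicle, 1644 with GSK-126, 1091 with fenretinide and 1691 in the combination (2.58 with GSK-126, 2.36 to 2.83). KCNK2, the stretch-sensitive TREK1 channel at 15529 bp, held 98, 273, 147 and 361 (2.95, 2.34 to 3.76). KCNJ2, a strong inward rectifier at 43918 bp, held 1658, 1270, 1685 and 1316 (0.812, 0.755 to 0.874). The last members inside the limit were KCNA6 at 6730 bp and KCNJ11 at 7169 bp, with ratios of 0.713 and 0.281. With all distances allowed, KCNV1 went from 1935 fragments in vehicle to 5658 with GSK-126 (3.10, 2.94 to 3.27) and KCND2, a Kv4 channel, from 3154 to 6569 (2.21, 2.12 to 2.31), while KCND2 within 10 kb had 112 and 58 (0.549, 0.393 to 0.761). The 3 members with the lowest vehicle density, ASIC5, KCNJ3 and KCNH7, had ratios of 7.42, 3.25 and 1.92 with GSK-126, the first from 4 and 28 fragments. Vehicle fragments enter both that density and the ratio.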
